A study of Mus musculus with 38 samples.

Results

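A set of 10 genes of the endothelium and its growth factors was followed through all 38 kidney libraries of the study. The genes were Pecam1, Ehd3, Emcn, Kdr, Flt1, Plvap, Vegfa, Tek, Angpt2 and Vwf. They were taken by symbol from the count table, where they are 10 of 55487 gene rows, and each symbol matched 1 row. The table holds 3 experiments on recombinant human FGF23, a phosphate-regulating hormone of bone, in kidney disease. In the first, male C57BL/6JRj mice aged 10 weeks had anti-glomerular basement membrane (anti-GBM) disease, induced with nephrotoxic serum after immunization with sheep IgG in Freund's adjuvant, or stayed healthy with PBS in its place. They then received 6 daily intravenous injections of 1 µg FGF23 or of its vehicle, PBS with BSA, and were killed 24 h after the last one (4 healthy vehicle, 3 healthy FGF23, 4 anti-GBM vehicle and 3 anti-GBM FGF23 kidneys). In the second, female BALB/c mice aged 10 weeks had Adriamycin nephropathy or received saline, and 24 h before death were injected once, with either vehicle or 1 µg of FGF23 (4 kidneys in each of 4 groups). In the third, precision-cut kidney slices from male DBA/2J mice aged 23 weeks on an adenine diet were cultured with FGF23 or vehicle, for 1 h by the labels and longer by the study's methods (4 slices each, without slices from healthy mice). All 10 genes passed the filter on low counts in all 3 experiments, and the smallest count of any of them in any library was 20.

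Endothelial cells of the kidney line the fenestrated glomerular capillaries, the peritubular capillaries, the vasa recta and the larger vessels. In the glomerulus, podocytes secrete VEGF-A (Vegfa), which signals through the receptor VEGFR2 (Kdr) on the endothelium, while VEGFR1 (Flt1) binds the same ligand and limits its supply. The receptor tyrosine kinase Tie2 (Tek) answers to the angiopoietins, with angiopoietin-1 as its main agonist and angiopoietin-2 (Angpt2) as a context-dependent antagonist. Pecam1 encodes the junctional adhesion molecule CD31, Emcn the surface sialomucin endomucin, Plvap the protein of fenestral diaphragms, and Vwf the haemostatic glycoprotein von Willebrand factor. Ehd3 encodes an endocytic recycling protein that in the kidney marks glomerular endothelium.

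On the mouse build GRCm38, Kdr (ENSMUSG00000062960) lies on chr5:75932827-75978458 and Flt1 (ENSMUSG00000029648) on chr5:147561604-147726011, both on the minus strand. Vegfa (ENSMUSG00000023951) lies on chr17:46016993-46032369, minus strand, and Ehd3 (ENSMUSG00000024065) on chr17:73804134-73832094, plus strand. Tek (ENSMUSG00000006386) is on chr4:94739289-94874976, Emcn (ENSMUSG00000054690) on chr3:137341067-137432185 and Vwf (ENSMUSG00000001930) on chr6:125546774-125686679, all on the plus strand. Angpt2 (ENSMUSG00000031465) is on chr8:18690263-18741562, Plvap (ENSMUSG00000034845) on chr8:71497765-71511752 and Pecam1 (ENSMUSG00000020717) on chr11:106654217-106750628, on the minus strand. All are protein-coding. The span of Angpt2 overlaps that of Mcph1 on the opposite strand (10003 against 5302 counts over all libraries). The span of Plvap overlaps that of Gtpbp3, also on the opposite strand (115607 against 12372 counts). Whether exons of these pairs overlap was not examined. Where they do, reads of a pair could not be told apart if strand was not used in counting.

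The sequence before the transcription start is shown for the 2 VEGF receptors, of which Kdr fell in anti-GBM disease and Flt1 was not called, and for another such pair, Tek, which fell, and Emcn, which was not called. RefSeq's promoter table (build GRCm38.p6) held 6 of the 10 genes, without Pecam1, Plvap, Angpt2 and Vwf. The windows end at the first annotated start and run 5′ to 3′ on the gene's own strand, at chr5:75978459-75978705 (minus) for Kdr, chr5:147726012-147726261 (minus) for Flt1, chr4:94739039-94739288 (plus) for Tek and chr3:137340828-137341066 (plus) for Emcn. Capitals mark AGGAAG or its complement CTTCCT, a core bound by ETS factors, which drive many endothelial genes, and GGGCGG or CCGCCC, the GC box bound by SP1.
Kdr: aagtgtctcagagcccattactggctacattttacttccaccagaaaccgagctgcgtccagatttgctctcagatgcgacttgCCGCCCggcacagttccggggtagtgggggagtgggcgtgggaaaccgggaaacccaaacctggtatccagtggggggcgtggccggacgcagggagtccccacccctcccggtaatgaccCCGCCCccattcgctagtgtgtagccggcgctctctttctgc
Flt1: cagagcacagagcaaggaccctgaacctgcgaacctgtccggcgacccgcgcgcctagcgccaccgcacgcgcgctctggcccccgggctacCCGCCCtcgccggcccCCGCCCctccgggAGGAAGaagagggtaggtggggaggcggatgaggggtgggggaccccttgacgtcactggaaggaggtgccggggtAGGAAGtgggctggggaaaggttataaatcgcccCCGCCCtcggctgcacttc
Tek: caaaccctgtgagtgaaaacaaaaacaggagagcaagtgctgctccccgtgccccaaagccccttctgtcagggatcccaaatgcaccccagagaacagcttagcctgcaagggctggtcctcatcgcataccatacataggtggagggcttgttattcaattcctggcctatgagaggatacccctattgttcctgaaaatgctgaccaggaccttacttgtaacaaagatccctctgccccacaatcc
Emcn: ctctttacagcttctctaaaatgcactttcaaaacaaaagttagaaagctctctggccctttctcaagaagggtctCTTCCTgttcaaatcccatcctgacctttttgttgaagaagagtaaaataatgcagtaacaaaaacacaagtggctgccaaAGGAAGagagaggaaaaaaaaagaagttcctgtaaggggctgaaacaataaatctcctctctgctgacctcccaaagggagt
The Kdr window held the GC box 2 times and AGGAAG 0 times, the Flt1 window held them 3 and 2 times, the Emcn window held only AGGAAG, 2 times, and the Tek window held neither. Of 32851 promoters of 250 bases, 29.5% held AGGAAG and 32.7% the GC box on either strand. The windows of Ehd3 and Vegfa are not shown. That of Ehd3, which was not called, held neither set of letters. The 2 windows of Vegfa, which fell, held the GC box 2 times and 1 time, and AGGAAG 0 times. The genes shown were picked by their calls, and of ETS cores only AGGAAG was searched. A match is a description of letters and not a bound site.

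Library totals ran from 13704248 to 23630210 counts in the anti-GBM experiment, from 15665050 to 27583911 in the Adriamycin experiment and from 11186925 to 16254987 in the slices. Levels are given as CPM, the share of a library's counts scaled to a fixed total, after TMM scaling within each experiment, and differences as log2 fold changes from edgeR's quasi-likelihood test with Benjamini-Hochberg adjustment over all genes tested in a comparison; a gene was called at an adjusted p below 0.05. Proximal tubule markers, the check of the labelled tissue, summed to between 9793 and 39099 CPM in the mouse kidneys but to between 334 and 810.4 CPM in the cultured slices. The slices of a group are described as independent biological replicates, and whether a vehicle and an FGF23 slice of the same number share a mouse is not stated.

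Per kilobase of exon, Plvap and Vegfa stood highest of the 10 genes in the mouse kidneys and Vwf lowest. In the anti-GBM experiment the medians over 14 kidneys were 84.3 CPM per kb for Plvap and 45.5 CPM per kb for Vegfa. Pecam1, Emcn, Kdr, Tek and Ehd3 followed with medians between 9.38 and 12.6 CPM per kb and ranges that overlapped each other, so their order was not resolved. Flt1 had a median of 6.19, Angpt2 of 1.88 and Vwf of 0.233 CPM per kb. The Adriamycin experiment gave the same first and last places, with medians of 87.3 CPM per kb for Plvap, 56.4 CPM per kb for Vegfa and 0.202 CPM per kb for Vwf. Tek was the gene that differed most in place between the 2 sets of kidneys. It had a median of 9.85 CPM per kb (range 7.88 to 12.6) in C57BL/6 and of 17.2 CPM per kb (range 15.3 to 21.2) in BALB/c, a pair of experiments that differ in strain, sex and treatment course and in which these cannot be told apart.

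**Figure D1:**
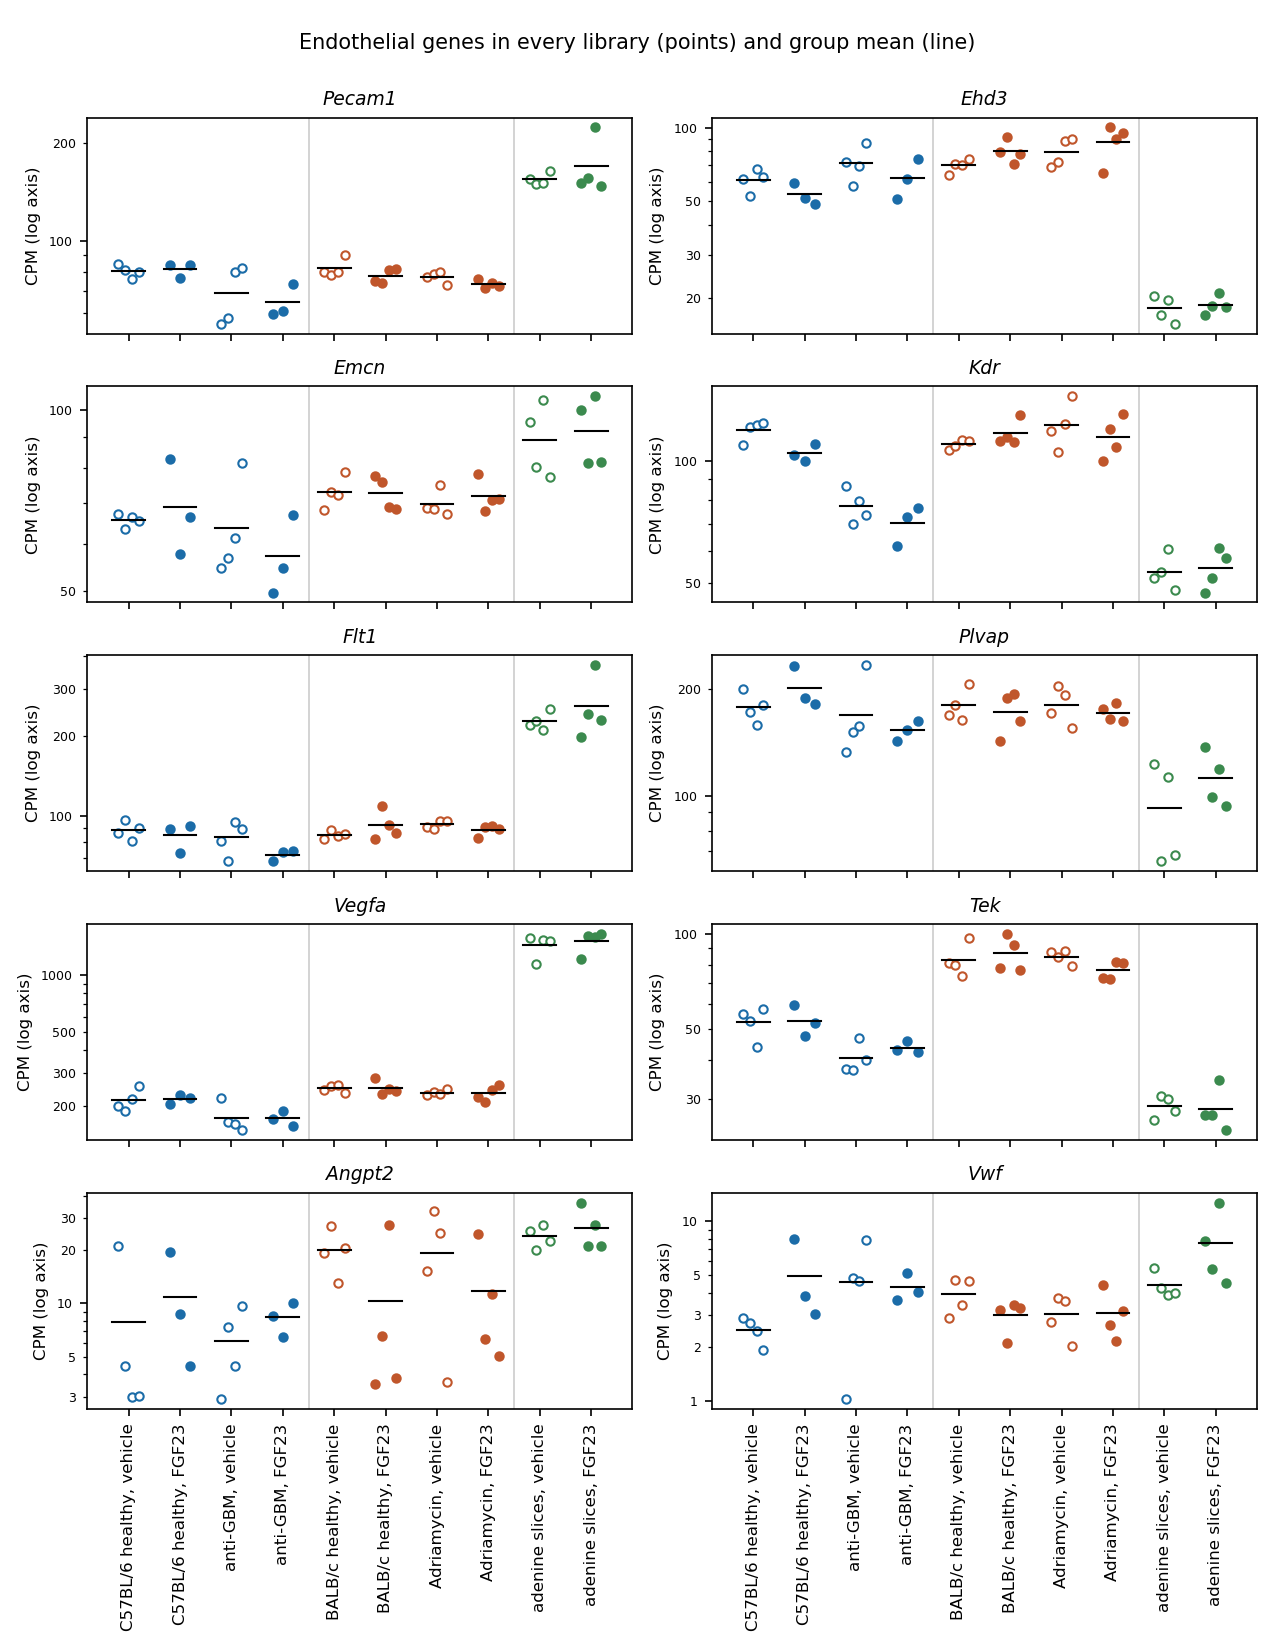
Level of each of the 10 genes in CPM (vertical axes, logarithmic) in every library, in the 10 groups along the horizontal axis; open points are vehicle, filled points FGF23, short lines group means, and grey lines part the 3 experiments. Kdr in all 7 anti-GBM kidneys lay below all 7 healthy C57BL/6 kidneys, whereas Angpt2 and Vwf spread widely inside groups.

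The first comparison asked how the 10 genes differed between anti-GBM and healthy kidneys, averaged over FGF23 and vehicle. Of the 10 genes 4 were lower in disease and 0 higher, namely Kdr, Tek, Vegfa and Pecam1. Among these Vegfa encodes the ligand that podocytes secrete, and which cells its reads came from was not tested. Over all 15859 genes tested 48.3% were called, 24.7% lower and 23.6% higher, so a large part of the transcriptome moved. The median log2 fold change of the 10 genes was -0.26, against -0.02 over all genes. Under vehicle alone 2 of the 10 genes were called, both lower, beside 39.8% of all genes (20.4% lower and 19.4% higher). Under FGF23 alone 1 was called, also lower, beside 27.2% of all genes (12.7% lower and 14.5% higher). In bulk tissue, fewer cells of a type and less RNA per cell cannot be told apart.

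Kdr showed the clearest difference. It was measured at 109.6, 121, 123 and 124 CPM in the healthy vehicle kidneys and at 100.1, 103 and 110.1 CPM in the healthy FGF23 kidneys. With anti-GBM disease it was at 69.8, 73.7, 79.5 and 86.6 CPM under vehicle and at 61.5, 72.7 and 76.6 CPM under FGF23. Every diseased kidney thus lay below every healthy one. The log2 fold change was -0.60 (SE 0.065, 95% interval -0.74 to -0.46, adjusted p = 6.9e-06 with edgeR), a percent change of -34.0%. The call was present in each treatment alone, with -0.62 under vehicle (SE 0.085, adjusted p = 0.00011, edgeR) and -0.57 under FGF23 (SE 0.098, adjusted p = 0.00085, edgeR). It also held in all 14 fits that left out 1 kidney, with values from -0.63 to -0.54.

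Tek, the angiopoietin receptor, was next. Its levels were 43.8, 53.0, 55.9 and 58.04 CPM in healthy vehicle kidneys and 37.1, 37.5, 40.1 and 47.0 CPM in anti-GBM vehicle kidneys. Under FGF23 they were 47.7, 52.4 and 59.4 CPM in health and 42.2, 42.9 and 45.9 CPM in disease. The groups overlapped by 1 kidney on each side under vehicle and were apart under FGF23. Averaged over treatments the log2 fold change was -0.33 (SE 0.078, adjusted p = 0.0029, edgeR). Under vehicle it was -0.38 (adjusted p = 0.0093, edgeR), a call that was lost without the healthy kidneys NTS1 or NTS4 (adjusted p = 0.052 and 0.057). Under FGF23 alone it was -0.29 and not called (adjusted p = 0.086, edgeR).

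Vegfa, the ligand of both VEGF receptors, was at 190.0, 200.2, 219 and 256 CPM in healthy vehicle kidneys. The anti-GBM vehicle kidneys had 149, 161, 165 and 221 CPM, of which only the highest, kidney NTS5, reached the healthy range. Under FGF23 the healthy kidneys had 205, 222 and 229.5 CPM and the diseased ones 157, 170.5 and 189 CPM, without overlap. Its log2 fold change was -0.33 (SE 0.093, adjusted p = 0.0098, edgeR) and stayed called in all 14 fits without 1 kidney. Neither treatment alone gave a call (adjusted p = 0.056 and 0.087, edgeR).

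Pecam1, the pan-endothelial adhesion molecule, was the weakest of the 4 calls. It lay between 76.3 and 84.7 CPM in the 7 healthy kidneys. The anti-GBM vehicle kidneys split into 55.4 and 57.7 CPM in one pair and 80.2 and 82.6 CPM in the other, and the anti-GBM FGF23 kidneys had 59.3, 60.5 and 73.5 CPM. The log2 fold change was -0.28 (SE 0.093, adjusted p = 0.022, edgeR). It passed the threshold in 7 of the 14 fits that left out 1 kidney (adjusted p from 0.0099 to 0.071), was lost without any one of NTS1, NTS2, NTS4, NTS5, NTS9, NTS13 and NTS14, and missed it when p-values were adjusted over all comparisons of the experiment together (adjusted p = 0.051).

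The other surface genes were not called. Flt1 was at 80.9, 86.4, 90.5 and 96.7 CPM in healthy vehicle kidneys and at 68.1, 80.7, 89.8 and 95.3 CPM in anti-GBM vehicle kidneys, so that the groups overlapped, with 2 diseased kidneys below all 4 healthy vehicle kidneys. Its log2 fold change over both treatments was -0.16 (95% interval -0.34 to 0.01, adjusted p = 0.107, edgeR). Emcn had -0.16 (interval -0.38 to 0.06) and Plvap -0.23 (interval -0.47 to 0.01), with adjusted p of 0.219 and 0.104 from edgeR. Of these, Plvap under FGF23 was lower in all 3 diseased kidneys (143 to 163 CPM) than in the 3 healthy ones (181 to 233 CPM). The intervals of all 3 genes include falls as large as that of Pecam1.

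Ehd3, the glomerular endothelial marker, had the opposite sign. It was at 52.4, 61.5, 62.6 and 67.9 CPM in healthy vehicle kidneys and at 57.5, 69.7, 72.1 and 86.9 CPM in anti-GBM vehicle kidneys. Under FGF23 it was at 48.8, 51.6 and 59.5 CPM in health and at 51.3, 61.5 and 74.2 CPM in disease. The groups overlapped in both treatments, and the log2 fold change of 0.23 (SE 0.10) was not called (adjusted p = 0.081, edgeR). A pair of alternative settings, no filter on low counts and a filter of 10 counts in every sample, did call it (adjusted p = 0.041 and 0.040).

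**Figure D2:**
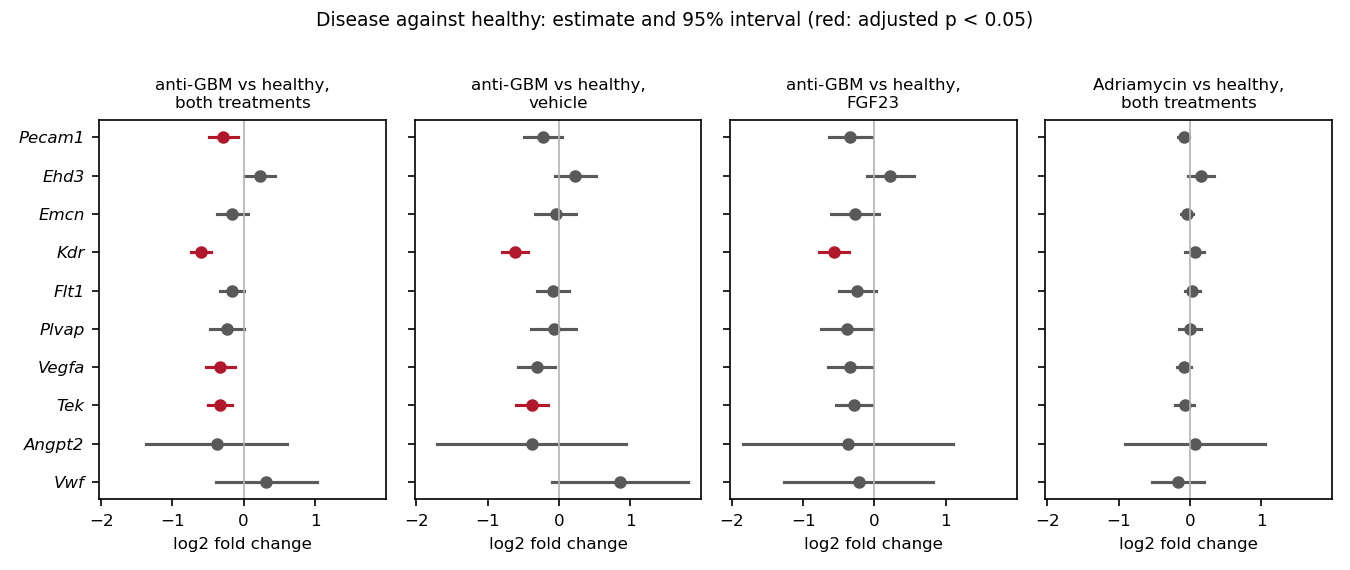
Log2 fold change (horizontal axis) of each gene in diseased against healthy kidneys with its 95% interval, for anti-GBM disease averaged over treatments, under vehicle and under FGF23, and for Adriamycin averaged over treatments; red marks an adjusted p below 0.05 in edgeR. Kdr is red in all 3 anti-GBM panels at -0.60, -0.62 and -0.57 and sits at 0.07 in the Adriamycin panel.

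Kdr was also set against 4 other endothelial genes by ratios of counts within a library, which need no scaling between libraries. The ratios were chosen after the values of these same kidneys were seen, so they are a description and carry no test. Kdr reads per Flt1 read lay between 1.15 and 1.52 in the 7 healthy kidneys and between 0.821 and 1.07 in the 7 anti-GBM kidneys, without overlap, and the mean log2 ratio differed by -0.45. Kdr reads per Ehd3 read likewise did not overlap, at 1.73 to 2.32 in health and 0.848 to 1.22 in disease, with a log2 difference of -0.82. The ratio to Emcn differed by -0.46 on the log2 scale and that to Pecam1 by -0.32, with overlapping ranges in both. Leaving out any 1 kidney moved these differences to between -0.48 and -0.41 for Flt1, -0.85 and -0.76 for Ehd3, -0.53 and -0.38 for Emcn, and -0.40 and -0.26 for Pecam1.

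**Figure D3:**
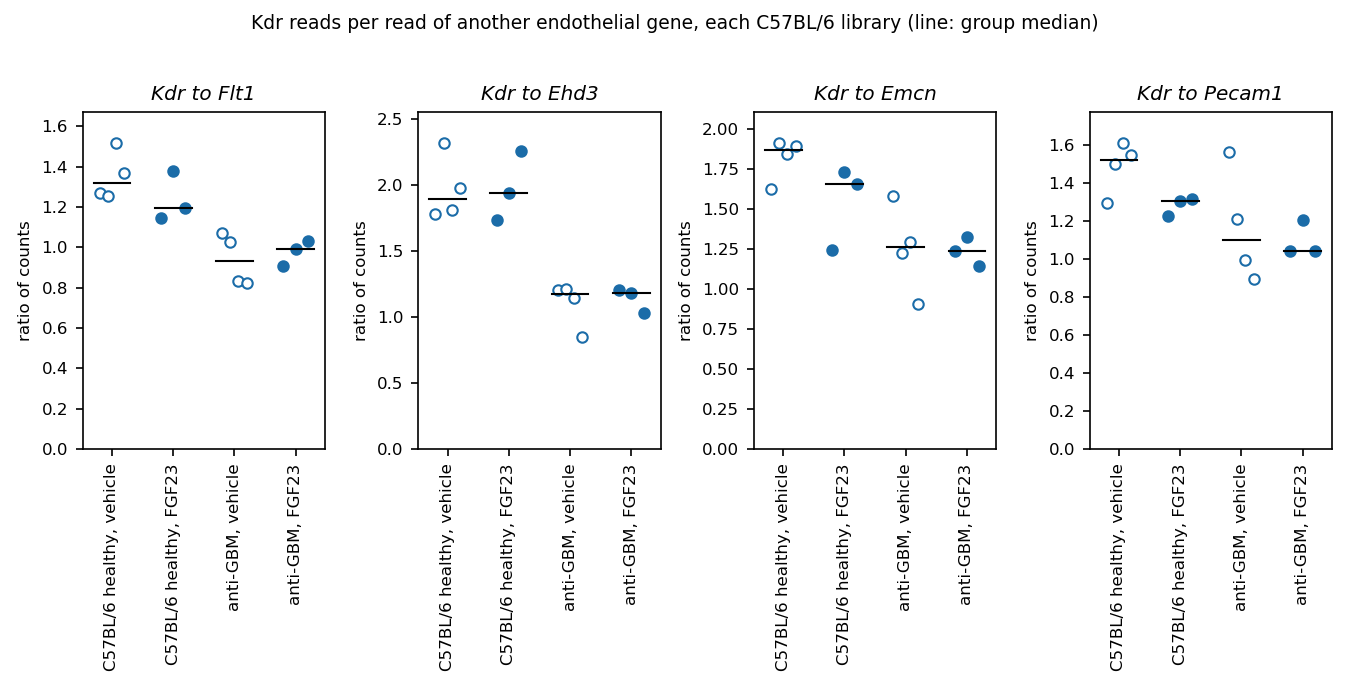
Ratio of Kdr counts to counts of Flt1, Ehd3, Emcn and Pecam1 (vertical axes, from 0) in each kidney of the anti-GBM experiment, by group; open points are vehicle, filled points FGF23, and lines group medians. For Flt1 and Ehd3 all 7 anti-GBM kidneys lie below all 7 healthy kidneys, and for Emcn and Pecam1 the ranges overlap.

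Of 11 other genes of the VEGF and angiopoietin system 2 rose, 2 fell and 7 were not called in anti-GBM disease, with a median log2 fold change of 0.04. The counts of this list and of those that follow are to be read beside the 48.3% of all genes called in this comparison. Angpt1, the agonist of Tie2, fell by 0.83 on the log2 scale (adjusted p = 2.4e-05, edgeR). Pgf, the placental growth factor that binds VEGFR1, rose with a log2 fold change of 1.27 (adjusted p = 0.00098), and Vegfd, a ligand of the lymphatic receptor VEGFR3, rose with 0.73 (adjusted p = 0.00055). Ptprb, which encodes the phosphatase VE-PTP that dephosphorylates Tie2, fell by 0.40 (adjusted p = 0.0016). Ptprb was also the gene whose levels were most like those of Tek over all 38 libraries (Pearson r = 0.82 of log2 CPM centred on each experiment's mean).

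Markers of endothelium in general did not follow Kdr as a group. Among 20 other pan-endothelial genes 3 rose, 2 fell and 15 were not called, with a median log2 fold change of -0.01. Those that rose were Ecscr (0.81), an endothelial sialoprotein, Ramp2 (0.72), a subunit of the adrenomedullin receptor, and Eng (0.27), a TGF-beta co-receptor. The 2 that fell were the ETS factor Erg (-0.32) and the guidance receptor Robo4 (-0.26). The 6 other genes listed for glomerular endothelium included 4 that rose, 1 that fell and 1 not called. Plat, tissue plasminogen activator, rose with 1.26 (adjusted p = 2.6e-06, edgeR) and Nostrin, a regulator of nitric oxide synthase trafficking, with 0.82 (adjusted p = 0.00014), while Sost fell by 1.69 (adjusted p = 0.0030).

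Of 10 genes listed for endothelial activation 9 could be tested, and all 9 were called, 6 higher and 3 lower. Which cells these transcripts came from cannot be told in bulk tissue and was not tested. Vcam1, a leukocyte adhesion molecule, rose with a log2 fold change of 3.67 (adjusted p = 1.7e-08, edgeR). Icam1, another one, rose with 1.49 (adjusted p = 1.8e-07, edgeR). The 3 that fell, named here because of their low number, were Esm1 (-1.60), a secreted proteoglycan of VEGF-stimulated tip cells, and Apln (-1.09) and its receptor gene Aplnr (-0.85), which act in sprouting vessels. Among 12 targets of hypoxia-inducible factor, of which Vegfa itself is another, 3 rose and 5 fell. The smallest p-values belonged to Adm, the vasodilator adrenomedullin, which rose with 1.01 (adjusted p = 1.5e-05, edgeR), to Ndrg1, a stress-responsive gene, which rose with 0.95 (adjusted p = 0.00012), and to Egln1, the oxygen sensor PHD2, which fell by 0.31 (adjusted p = 0.00027).

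Other cell types moved in the same comparison. Proximal tubule markers summed to between 28322 and 39099 CPM in the 7 healthy kidneys and to between 11461 and 28289.5 CPM in the 7 anti-GBM kidneys, with 7 of 8 genes lower. Leukocyte markers summed to between 77.6 and 133 CPM in health and between 134 and 214 CPM in disease, with 7 of 8 genes higher and 1 (Cd79a) lower. Podocyte markers, the source cells of glomerular VEGF-A, overlapped in sum (662 to 943 against 565 to 815 CPM), with 1 of 9 genes higher (Cdkn1c), 1 lower (Clic5) and 7 not called. Of 7 mesangial and pericyte markers 3 rose and 1 fell. Smooth muscle markers rose in 2 of 5 and fell in 0, and thick ascending limb markers were called in 0 of 5. The lymphatic list had 1 higher and 1 lower of 4 tested, and the platelet list 1 lower of 2 tested. The part of these shifts in the values of the 10 genes was not tested.

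Angpt2 and Vwf could not be placed by disease because their levels varied within groups. The highest kidney of a mouse group exceeded the lowest by up to 9.06 times for Angpt2 and up to 7.68 times for Vwf, against at most 1.54 times for Ehd3 and 1.37 times for Kdr over all groups. In healthy vehicle kidneys of C57BL/6 mice Angpt2 was at 3.00, 3.05 and 4.47 CPM in 3 kidneys and at 21.1 CPM in kidney NTS1. In anti-GBM vehicle kidneys it was at 2.91, 4.47, 7.40 and 9.72 CPM. Its log2 fold change was -0.38 with a 95% interval from -1.37 to 0.61, so neither a fall nor a rise of the size of the Kdr difference could be seen at this spread. Without kidney NTS1 the value was 0.24, also not called. Vwf was between 1.92 and 2.89 CPM in healthy vehicle kidneys and at 1.02, 4.67, 4.83 and 7.85 CPM in anti-GBM vehicle kidneys. Without kidney NTS5, the one at 1.02 CPM, Vwf was called higher under vehicle with a log2 fold change of 1.24 (adjusted p = 0.0071, edgeR), whereas with it the value was 0.86 (adjusted p = 0.142).

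The genes whose levels followed Angpt2 most closely over the 38 libraries were Scel (Pearson r = 0.94), Slc14a2 (r = 0.92) and Pcsk6 (r = 0.92), all on log2 CPM centred on each experiment's mean. Slc14a2 encodes the urea transporter UT-A of the inner medulla. Within groups, r between Angpt2 and Slc14a2 was 0.94 over 14 kidneys of the anti-GBM experiment, 0.93 over 16 of the Adriamycin experiment and 0.85 over 8 slices. Pcsk6 gave 0.94, 0.95 and 0.80, while Scel gave 0.99 and 0.94 in the mouse kidneys but -0.10 in the slices. Kidney NTS1 had 60.5 CPM of Slc14a2, and kidneys NTS3 and NTS4 of the same group had 0 reads of it. Libraries share depth and tissue sampling in such a correlation, so it is given as a description.

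**Figure D4:**
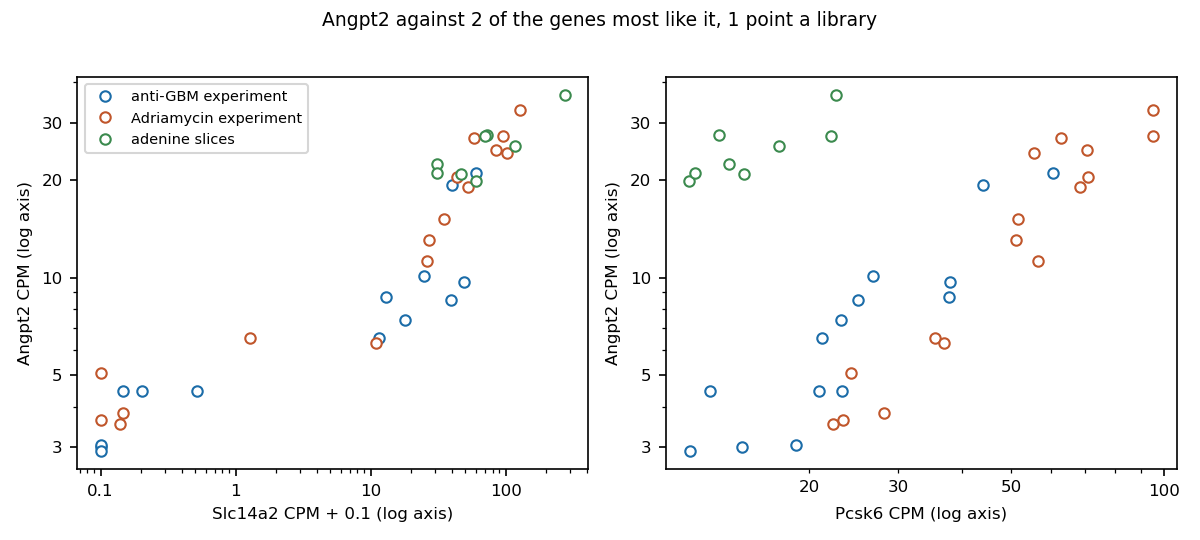
Angpt2 level (vertical axes, CPM, logarithmic) against the level of Slc14a2 (left, CPM with 0.1 added, logarithmic) and Pcsk6 (right, CPM, logarithmic), 1 point a library, coloured by experiment. In the mouse kidneys Angpt2 runs from 2.91 to 32.96 CPM and rises with both genes, and in the slices it lies at 19.9 to 36.6 CPM.

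Kdr ran the other way within groups of the mouse kidneys, with r to Angpt2 of -0.60 in the anti-GBM experiment and -0.78 in the Adriamycin experiment. In the slices this r was -0.13. Kdr was not alone in this. In the same order of experiments, Vegfa gave -0.60, -0.33 and -0.27 to Angpt2, and Ehd3 gave 0.19, -0.58 and 0.13. Plvap ran with Angpt2, at 0.69, 0.76 and 0.79. Among kidneys without Slc14a2 reads Kdr can be read for 3 kidneys of the anti-GBM experiment. NTS5, the anti-GBM vehicle kidney with 0 reads of Slc14a2, had 86.6 CPM of Kdr, and the healthy vehicle kidneys NTS3 and NTS4 had 123 and 124 CPM. These kidneys are too few for a comparison. The part of tissue sampling in the values of Kdr, Vegfa, Plvap and the other genes was not tested. The other genes of the set had other nearest genes. Pecam1 was most like Cdh5, which encodes VE-cadherin (r = 0.86), Flt1 was also most like Cdh5 (r = 0.75), and Emcn was most like Plvap (r = 0.73). Within groups these pairs gave 0.94, 0.75 and 0.84 in the anti-GBM experiment. The Adriamycin experiment gave only 0.525, 0.26 and 0.22, and the slices gave 0.94, 0.99 and 0.87. Vegfa followed Acvr2b (r = 0.80), Ehd3 followed Cd200 (r = 0.74), Plvap followed Wfdc15b (r = 0.86) and Vwf followed Elf5 (r = 0.76). Kdr followed Plekhb2 (r = 0.88) and Lrrc19 (r = 0.88). Within groups of the anti-GBM experiment, the Adriamycin experiment and the slices, Kdr gave 0.53, 0.83 and 0.59 to Plekhb2. To Lrrc19 it gave 0.64, 0.65 and 0.43. Vegfa gave 0.82, 0.49 and 0.67 to Acvr2b. Centring on the experiment's mean keeps differences between groups in r, and centring on groups does not.

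In Adriamycin nephropathy none of the 10 genes was called against healthy BALB/c kidneys by edgeR, and none by DESeq2. At an unadjusted p below 0.05 each tool gave 1 of the 10 genes, beside 15% of all genes in edgeR. The gene in edgeR was Pecam1, with a log2 fold change of -0.09 (95% interval -0.16 to -0.01, adjusted p = 0.273). Over all 16020 genes tested 1.94% were called. Kdr was at 106, 109, 112 and 113 CPM in healthy vehicle kidneys and at 105, 118, 124 and 144 CPM in Adriamycin vehicle kidneys. Its log2 fold change over both treatments was 0.07 with a 95% interval from -0.07 to 0.20. This interval does not reach the Kdr change in anti-GBM disease, although the models differ in strain, sex and treatment course and were not tested against each other. Apart from Angpt2 and Vwf, the 8 other genes had estimates between -0.09 and 0.16, and their intervals lay between -0.21 and 0.34.

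Flt1 in the vehicle groups of the Adriamycin experiment did not overlap, at 81.9 to 88.6 CPM in healthy and 89.7 to 96.1 CPM in Adriamycin kidneys, but its log2 fold change of 0.13 was not called (adjusted p = 0.670, edgeR), beside 0.331% of all genes called in that comparison. Under FGF23 it was -0.06, where 0 of the 10 genes and 0.699% of all genes were called. Of the other lists, Apln fell by 0.43 on the log2 scale (adjusted p = 0.0052, edgeR), Adm rose with 0.50 (adjusted p = 0.0051), and the podocyte cell-cycle inhibitor gene Cdkn1c rose with 0.51 (adjusted p = 0.00082). The proximal tubule marker Kap fell by 3.24 (adjusted p = 9.3e-05). None of the other VEGF, pan-endothelial or glomerular endothelial genes was called over both treatments, and under FGF23 alone the endothelial transcription factor gene Sox7 fell by 0.72 (adjusted p = 0.020).

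FGF23 was compared with vehicle in 5 settings, and none of the 10 genes was called in any of them by edgeR or DESeq2. The same held for the 2 interaction tests, which ask whether FGF23 acted differently in disease than in health. Over all genes, FGF23 gave 0% called in healthy C57BL/6 mice, 0.24% in anti-GBM disease, 0% in healthy BALB/c mice, 0.0375% in Adriamycin nephropathy and 0% in the slices. The interactions gave 0.0315% with anti-GBM disease and 0% with Adriamycin. At an unadjusted p below 0.05, edgeR returned Vwf in the slices and none of the 10 genes in the other 4 settings or the interactions. The share of all genes at that limit in edgeR was 4.34% in healthy C57BL/6 mice, 12.6% in anti-GBM disease, 6.69% in healthy BALB/c mice, 5.69% in Adriamycin nephropathy and 4.89% in the slices, and 8.3% and 5.11% for the interactions with anti-GBM disease and Adriamycin. DESeq2 returned 1 gene in healthy C57BL/6 mice and 1 in the slices. The share of all genes at that limit in DESeq2 is not given here, so these counts are not a result about the 10 genes.

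The intervals give the sizes that these data could not resolve. For the 8 genes other than Angpt2 and Vwf, the 95% intervals of the FGF23 effect spanned at most -0.51 to 0.52 on the log2 scale in healthy C57BL/6 mice and -0.51 to 0.35 in anti-GBM disease. In the BALB/c mice they spanned -0.28 to 0.45 in health and -0.34 to 0.39 in Adriamycin nephropathy. Kdr, the gene that fell with anti-GBM disease, had -0.19 (interval -0.39 to 0.00) under FGF23 in healthy mice and -0.14 (interval -0.34 to 0.06) in anti-GBM mice. The difference between these, the interaction, was 0.05 (interval -0.23 to 0.33, adjusted p = 0.921, edgeR). Vwf in healthy C57BL/6 mice lay above vehicle in all 3 FGF23 kidneys, at 3.05, 3.83 and 8.03 CPM against 1.92 to 2.89 CPM. Its log2 fold change of 1.00 (interval -0.01 to 2.00) was not called (adjusted p = 0.996, edgeR). In anti-GBM mice of the same strain it was -0.08, and the interaction was -1.08 (adjusted p = 0.667).

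**Figure D5:**
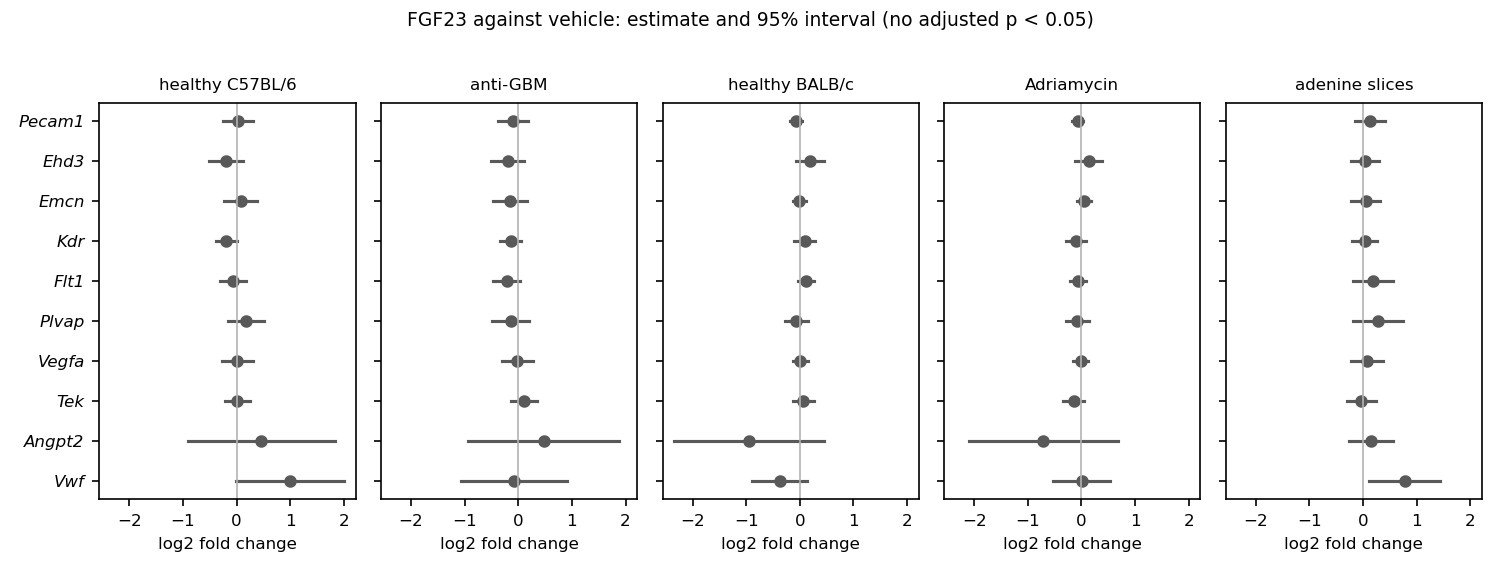
Log2 fold change (horizontal axis) of each gene under FGF23 against vehicle with its 95% interval in 5 settings, from edgeR. No gene is called, and the intervals of Angpt2 and Vwf in the mouse kidneys are far wider than those of the 8 other genes, reaching from -2.34 to 2.00.

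All 10 genes were detected in the cultured adenine slices, in other proportions than in the mouse kidneys. Vegfa was at 1142, 1520, 1529 and 1577 CPM in vehicle slices and at 1223, 1589, 1614 and 1656 CPM in FGF23 slices. No mouse kidney of the other experiments exceeded 283 CPM. Strain, age, disease and culture all differ between these experiments and cannot be told apart, and each experiment was scaled on its own, so ratios within a library are given next. There were between 7.11 and 11.3 Vegfa reads per Pecam1 read in the slices, and between 1.81 and 3.98 in all 30 mouse kidneys. Kdr reads per Flt1 read were at 0.165 to 0.287 in the slices, against 0.821 and above in every mouse kidney. Ehd3 reads per Pecam1 read were at 0.0938 to 0.132, against 0.583 and above in every mouse kidney.

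Within the slices 1 FGF23 slice stood apart. Slice 3F had 369 CPM of Flt1, 223 CPM of Pecam1 and 12.7 CPM of Vwf, while the 3 other FGF23 slices had 198 to 241, 147 to 156 and 4.56 to 7.73 CPM. Vwf, with 3.88, 4.01, 4.28 and 5.53 CPM under vehicle, had a log2 fold change of 0.77 (SE 0.30, unadjusted p = 0.026, adjusted p = 0.849, edgeR). Without slice 3F it was 0.41 (unadjusted p = 0.10). Kdr, with 47.9 to 60.7 CPM under vehicle and 47.3 to 60.9 CPM under FGF23, had a log2 fold change of 0.03 (interval -0.20 to 0.26), and Vegfa had 0.08 (interval -0.22 to 0.37).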

How the data were processed

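RNA of kidney fragments or slices was made into stranded mRNA libraries, sequenced paired-end, and processed by the authors with bcl2fastq 2.20.0, FastQC 0.11.8, STAR 2.7.9a and featureCounts 1.5.1 against GRCm38. The deposited values are raw counts per gene (55487 genes, 346 without a symbol), with no normalization. Whether counting used strand is not given in the sources used here. For the slices, the labels give 1 h of treatment and the methods a longer time. Columns of the mouse experiments were tied to groups through the group rows of the study's count tables, not to numbered replicates. The column of library 14 carries the sample name of library 4 and was taken as NTS14, in the anti-GBM FGF23 group. Slices were assigned by their names (V or F), which match the titles in the labels and the treatment row of the study's slice table, but a row of group letters there splits the slices differently.

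From these counts, each experiment was fitted on its own with edgeR 4.0.16 (R 4.3.3): filterByExpr with a minimum count of 10 (15859, 16020 and 15090 genes), TMM scaling, 1 mean per group, the quasi-likelihood test and Benjamini-Hochberg adjustment within a comparison, with calls at 0.05. DESeq2 1.42.0, other scalings and filters, fits on the compared groups only, and leaving out each library were the alternatives. In simulated counts, the anti-GBM fit called 57 of 100 genes changed by 0.5 and 79 of 100 changed by 1.0 on the log2 scale, the Adriamycin fit 63 and 92, and the slice fit 21 and 74. Only these genes were changed in the simulation, whereas 48.3% of all genes were called in the real anti-GBM comparison. The adjustment for multiple testing therefore differed, and the simulated rates do not describe that comparison. In the real slices 0% of all genes were called, so the adjustment differed there too. The mouse rates are for disease over both treatments and not for FGF23 against vehicle. No 2 libraries of a group were duplicates (chi-square per degree of freedom at least 2.12). The lowest values were 2.12 for FGF23 slices 2F and 4F and 3.09 for vehicle slices 1V and 3V. Every other pair of slices in a group had 9.99 or more. Whether slices that are this close came from the same kidney was not tested. Likeness is Pearson's r of log2 CPM (prior count 2) centred on the experiment's mean over 38 libraries, among 13973 genes.

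All 10 genes are named in every comparison, and of each other list the 3 genes with the smallest p among those called, or all of them where few; 1 gene that this rule would name is not reported here. Genes and lists were chosen with earlier results of these data known.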

Additional observations from a re-analysis of the deposited data

Results flagged for a closer look

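Among 80 sets of 4 libraries (1 gene in 1 group), 8 held a library far from the other 3, judged by its gap to the nearest one as a share of the set's whole range. Chance alone gives about 1 in 20, or 4 of 80. Angpt2 gave the widest gaps in the mouse kidneys. Kidney NTS1 (healthy C57BL/6, vehicle) had 21.1 CPM of Angpt2 against 3.00 to 4.47 CPM in the others, a gap of 0.919 of the range, and kidney Ad12 (healthy BALB/c, FGF23) had 27.4 against 3.53 to 6.53 CPM, a gap of 0.874. Kdr in the same kidney NTS1 was low, at 109.6 against 121 to 124 CPM (0.837), and Kdr in kidney Ad9 (healthy BALB/c, FGF23) was high, at 130.1 against 111 to 114 CPM (0.833). Pecam1 stood apart in kidney Ad4 (healthy BALB/c, vehicle), with 90.3 against 78.2 to 80.0 CPM (0.847), and in FGF23 slice 3F, with 223 against 147 to 156 CPM (0.886). Vegfa was low in FGF23 slice 1F, with 1223 against 1589 to 1656 CPM (0.845), and in vehicle slice 2V, with 1142 against 1520 to 1577 CPM (0.870).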

How the results depend on the processing

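No called value changed its direction under any alternative. With a log2 fold change above 1 required, the number of the 10 genes called fell to 0 in anti-GBM against healthy over both treatments, under vehicle and under FGF23 (4, 2 and 1 without that demand). Fitting only the compared groups raised the FGF23 count to 4 (Kdr, Pecam1, Plvap and Vegfa), and the cause was not tested. The shares of all genes called in these alternative fits are not given here. A change in the count is therefore not a result about the 10 genes in particular. Leaving out 1 kidney at a time gave 3 to 5 genes over both treatments, 1 to 4 under vehicle (1 without NTS1 or NTS4, and 4 without NTS5, which added Vegfa and Vwf) and 1 under FGF23. The other 10 comparisons gave 0 genes under every alternative run. Kdr, Tek and Vegfa stayed called over both treatments without any 1 of the 14 kidneys, whereas Ehd3 was called, as higher, without NTS3, NTS6 or NTS13, Flt1 without NTS7 and Plvap without NTS8, both as lower. The slices' labels share replicate numbers, and with the replicate block 0 of the 10 genes were called, as without it. Same-numbered slices correlated at 0.107, 0.105, -0.105 and 0.112, and differently numbered slices at -0.161 to 0.124. With so few slices these values cannot decide whether same-numbered slices share a mouse. The main fit did not use the numbers as pairing. No paired analysis was possible for the mice because their columns carry no replicate numbers of the labels. Group sizes of 3 or 4 limit what could be called, and intervals cover the spread between libraries only.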
